A study of Homo sapiens with 9 samples.

Results

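Expression of 10 genes that give endothelial cells their junctions and their identity was described in HMEC-1 cells. HMEC-1 is a human endothelial line from the small vessels of the skin, immortalised with a viral antigen. The genes were CDH5, ESAM, ENG, TIE1, TEK, ANGPT2, PTPRB, ERG, EGFL7 and VWF. The rule takes them by symbol and uses no measured value, although the set was drawn up with earlier results of these data known. All 10 were present among the 18293 genes listed for both compounds. Cells grew in medium with 5.5 mM glucose and were exposed for 16 h to the solvent DMSO (the control), to AMI-1 or to AMI-5. Each compound was given at 100 µM. AMI-1 is a urea that joins a pair of hydroxynaphthalene sulfonic acid units, AMI-5 is a brominated xanthene dye, and both are known as inhibitors of protein arginine methyltransferases. Poly-A RNA was sequenced from 3 libraries per group, 9 in all. No allele or transgene distinguished the groups, all came from 1 cell line, and the labels do not say that the libraries were separate cultures. The p-values therefore measure only the spread between these libraries, which may be technical.

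The products of these genes form a small circuit at the endothelial surface. VE-cadherin, the product of CDH5, holds neighbouring endothelial cells together at adherens junctions, and ESAM is an immunoglobulin-family adhesion molecule of tight junctions. TEK encodes TIE2, the receptor of the angiopoietins. TIE1 is its partner receptor, ANGPT2 a ligand that can antagonise TIE2, and PTPRB (VE-PTP) a phosphatase that dephosphorylates TIE2 and associates with VE-cadherin. ENG encodes endoglin, a co-receptor for BMP9 and other ligands of the TGF-beta family. ERG is an ETS-family transcription factor known to maintain the expression of endothelial genes, among them CDH5, and ETS factors bind DNA around a GGAA core. EGFL7 is a secreted protein of the vessel matrix whose gene carries the microRNA miR-126 in an intron, and VWF, stored in Weibel-Palade bodies, binds platelets.

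Promoter windows are shown for the 3 receptor genes ENG, TIE1 and TEK, because ENG and TIE1 fell along with ERG under AMI-5 while TEK did not pass the test. The choice thus followed test outcomes. TIE1 did not pass when libraries were corrected for GC content (log2 fold change -0.07, edgeR adjusted p = 0.187). Each window holds the 250 bases before the transcript start, written 5′ to 3′ on the strand of the gene, from RefSeq on build GRCh38.p14 (the reads were counted on hg19). Capitals mark GGAA and its reverse complement TTCC. ENG lies on the minus strand at chr9:127854659-127854908, TIE1 on the plus strand at chr1:43300732-43300981, and TEK on the plus strand at chr9:27108975-27109224 (the upstream of 2 annotated starts).
ENG: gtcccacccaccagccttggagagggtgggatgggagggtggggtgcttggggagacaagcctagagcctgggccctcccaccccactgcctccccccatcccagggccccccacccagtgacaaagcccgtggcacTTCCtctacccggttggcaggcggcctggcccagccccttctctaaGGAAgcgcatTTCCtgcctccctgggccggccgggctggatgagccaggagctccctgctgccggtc
TIE1: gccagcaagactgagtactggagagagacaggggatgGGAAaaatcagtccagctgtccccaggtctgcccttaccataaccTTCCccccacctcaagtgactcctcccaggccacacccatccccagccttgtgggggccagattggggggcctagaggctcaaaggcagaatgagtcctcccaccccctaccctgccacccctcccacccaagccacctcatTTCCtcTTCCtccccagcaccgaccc
TEK: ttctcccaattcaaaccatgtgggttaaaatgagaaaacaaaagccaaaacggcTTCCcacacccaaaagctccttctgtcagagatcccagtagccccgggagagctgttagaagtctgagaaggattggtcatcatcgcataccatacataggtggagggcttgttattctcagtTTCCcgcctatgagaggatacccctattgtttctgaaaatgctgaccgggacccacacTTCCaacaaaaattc
Counting both strands, the ENG window held 3 matches, the TIE1 window 4 and the TEK window 3. Over 35116 windows of the same length in the same table, 92.7% held at least 1 match and the median was 3. A match is only a match of letters. The longer motif ACAGGAA or TTCCTGT, which contains GGAA or TTCC, was in none of the 3 windows shown and in 5.87% of all windows. The window of the other annotated start of TEK, at chr9:27109200-27109449, held 6 matches to GGAA or TTCC, more than 90.9% of windows, and 1 match to the longer motif. The longer motif also had 1 match in 1 of the windows of EGFL7. GC content was 69.6% in the ENG window, 61.6% in that of TIE1 and 46.4% in that of TEK. The table held windows for 5 of the 10 genes, the others being ERG and EGFL7.

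Levels of different genes were compared as CPM (read counts scaled to the size of the library) per kilobase of the longest annotated transcript. In control cells ENG was the most abundant of the 10 at 156.9 ± 39.1 CPM per kb (SD, n = 3), a level higher than that of 98.4% of the 17505 genes with a length. CDH5 followed at 43.1 ± 6.11 and TIE1 at 41.2 ± 10.3 CPM per kb, and those 2 did not differ beyond their spread. EGFL7 (26.6 ± 11.4), TEK (16.8 ± 3.02) and ERG (11.7 ± 0.391 CPM per kb) came next, with overlap among CDH5, TIE1 and EGFL7 and between EGFL7 and TEK. The remaining 4 were scarce by this measure. PTPRB stood at 1.69 ± 0.321, VWF at 0.788 ± 0.252, ESAM at 0.491 ± 0.224 and ANGPT2 at 0.132 ± 0.0202 CPM per kb. ESAM was above only 6.74% of genes and ANGPT2 above 0.628%, so both lie at the floor of what these tables list. By the longest transcript, VWF and ESAM overlapped in control cells, and PTPRB lay clear of both. With the median transcript length in place of the longest, TIE1 led at 250.5 CPM per kb, ahead of ENG at 171.2 and CDH5 at 92.1, so the order of these 3 rests on the transcript length chosen. So does that of VWF and PTPRB. With the median length VWF stood at 10.1 CPM per kb (range 7.82 to 13.8), above PTPRB at 3.94 (3.48 to 4.80) and ESAM at 0.627.

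**Figure D1:**
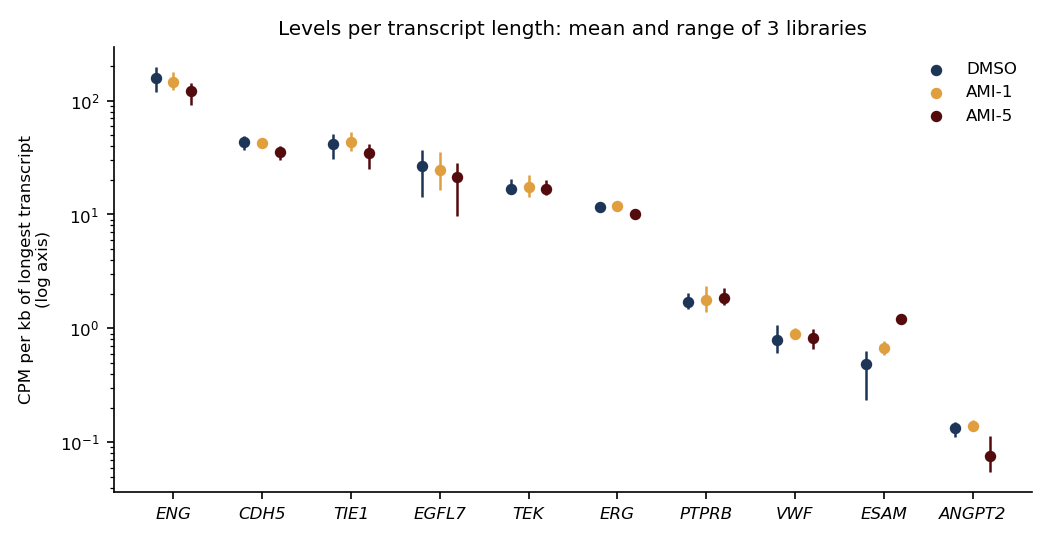
Level of each endothelial gene per kilobase of its longest transcript (CPM per kb, log axis), ordered by the control mean. Points are means and bars the range of 3 libraries in DMSO, AMI-1 and AMI-5. ENG lies highest (156.9 CPM per kb in control) and ANGPT2 lowest (0.132), and ESAM is the gene whose AMI-5 point (1.198 CPM per kb) stands clear above its control range.

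Between libraries, replicate number accounted for more of the variation than treatment, 77.2% against 11.1% of the sum of squares over all genes tested. Libraries with the same replicate number deviated together from their group means (correlations over genes of 0.431 to 0.871 for the 9 same-number pairs, -0.804 to 0.204 for the 18 others). Deviations from a group mean cancel within the group, so agreement within a number lowers the other correlations by construction. Total counts ran from 14454113 to 24693020 per library. Results are therefore given from a pair of fits for each gene, both by the quasi-likelihood F test of edgeR with p-values adjusted by Benjamini-Hochberg over 18284 genes. Replicate number entered 1 of the fits as a block and was left out of the other. Fold changes are stated from the blocked fit unless said otherwise, and a gene is said to have risen or fallen when its adjusted p was under 0.05 there.

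With AMI-5 against control, none of the 10 endothelial genes passed the test without the block, where 0.00% of all genes did (edgeR adjusted p 0.9999 for each, with 2 of the 10 and 485 of 18284 genes at an unadjusted p under 0.05, and DESeq2 calling 0 of the 10 and 19 genes, 0.104% of those it tested). With the block, 6 of the 10 passed, against 10.9% of all genes. ENG, CDH5, EGFL7, TIE1 and ERG fell (5 genes, where 7.51% of all genes fell), and ESAM rose, where 3.44% of all genes rose. ENG fell by 21.9% and ERG, at the other end, fell by 14.0%, while ESAM rose 2.38-fold from a very low level. TEK, PTPRB, VWF and ANGPT2 did not pass. The median log2 fold change of the 10 genes was -0.23, against -0.005 over all genes tested. When libraries were corrected for GC content, these medians were -0.07 and -0.005. All 3 pairs of libraries with the same number were lower with AMI-5 for those 5 genes, as for 28.8% of all genes, and higher for ESAM and PTPRB, as for 24.7%. DESeq2 with the block gave an adjusted p for 7 of the 10 and called 3, all lower: CDH5, ENG and TIE1, where it called 12.5% of genes. It did not call ERG (adjusted p = 0.0547) or EGFL7 (0.192). In bulk RNA, fewer cells of a kind and less RNA per cell cannot be told apart.

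**Figure D2:**
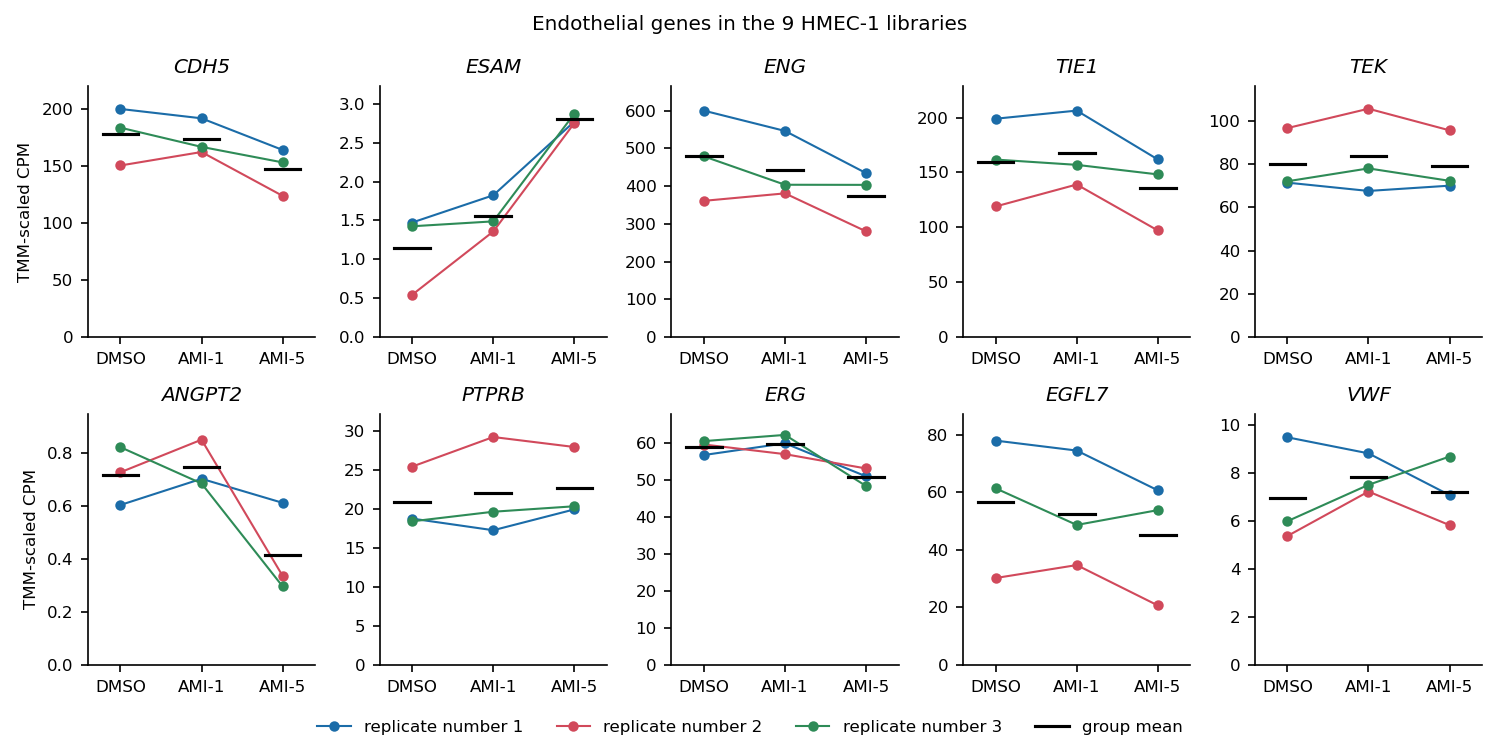
CPM of the 10 endothelial genes in each of the 9 libraries, 1 panel per gene with a linear axis from 0. Lines join libraries with the same replicate number across DMSO, AMI-1 and AMI-5, and black bars are group means. CDH5, ENG, TIE1, ERG and EGFL7 are lower with AMI-5 than with DMSO along all 3 lines, ESAM is higher along all 3, and the lines of TEK are nearly flat between DMSO and AMI-5 (95.6 against 96.6 CPM in replicate 2).

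Among the adhesion molecules, CDH5 and ESAM moved in opposite directions under AMI-5. CDH5 stood at 199.8, 150.3 and 183.4 CPM in control replicates 1, 2 and 3, at 191.6, 162.1 and 166.6 CPM with AMI-1, and at 163.9, 123.7 and 153.0 CPM with AMI-5. Within every replicate number the AMI-5 library was the lowest of its 3, although AMI-5 replicate 1 lay above control replicate 2, so that the groups overlapped. The 3 paired log2 ratios of AMI-5 to control were alike, at -0.29, -0.28 and -0.26. CDH5 fell to 0.826 of control (95% interval 0.758 to 0.900, log2 fold change -0.28 ± 0.06 SE, edgeR adjusted p = 0.00800). The call held in 5 of 9 fits that each left out 1 library, and was lost when control replicate 1, control replicate 3 or either of AMI-5 replicates 1 and 2 was left out, where the adjusted p reached 0.103.

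ESAM was measured from few reads, 9 to 68 per library. Its level was 1.47, 0.544 and 1.42 CPM in control replicates 1, 2 and 3, then 1.82, 1.36 and 1.49 CPM with AMI-1, and 2.77, 2.75 and 2.87 CPM with AMI-5. All 3 AMI-5 libraries lay above all 6 others, and control replicate 2 was the lowest of the 9. ESAM rose 2.38-fold with AMI-5 (95% interval 1.70 to 3.34, log2 fold change 1.25 ± 0.23 SE, edgeR adjusted p = 0.00327 with the block and 0.9999 without it). The call held in 9 of 9 fits without 1 library. Without control replicate 2, the log2 fold change was 0.98 (adjusted p = 0.0117). DESeq2 with the block estimated a log2 fold change of 1.31 and gave no adjusted p for this low count.

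A gene adjacent to ESAM also rose with AMI-5. VSIG2, an immunoglobulin-family gene, lies next to ESAM on the same strand in the GENCODE annotation, beyond its 3′ end. VSIG2 stood at 1.67, 1.69 and 1.29 CPM in control replicates 1, 2 and 3, at 2.10, 1.41 and 1.77 CPM with AMI-1, and at 5.64, 4.63 and 5.58 CPM with AMI-5. Its AMI-5 libraries too lay above all others. The log2 fold change of VSIG2 was 1.79 ± 0.17 SE (edgeR adjusted p = 9.486e-06 with the block and 0.3004 without it). MSANTD2, the neighbour on the other side, was at 17.2 ± 1.03 CPM in control and 14.95 ± 1.101 CPM with AMI-5 (log2 fold change -0.20, edgeR adjusted p = 0.177, and -0.32, 0.00480, when libraries were corrected for GC content). Whether the changes of ESAM and VSIG2 are connected was not tested. An antisense gene, AP000866.2, overlaps ESAM and was not among the genes tested. VSIG2 was looked at because of its position, and its values were seen before it was chosen for display. A change in the same direction as an adjacent gene was not particular to ESAM: with AMI-5 both neighbours of ENG fell, FPGS by 0.54 (adjusted p = 5.793e-04) and AK1 by 0.34 (0.00861) on the log2 scale, and CDC20, beside TIE1, fell by 0.21 (0.0256, and 0.118 with GC correction). With GC correction FPGS was at -0.34 and AK1 at -0.21. ETS2, beside ERG, also fell, where 7.51% of all genes did. The neighbours of CDH5 had positive estimates that did not pass, CDH11 at 0.48 (0.0786) and LINC00920 at 0.68 (0.0948). EBNA1BP2 beside TIE1, DYRK1A beside ERG, and NOTCH1 and AGPAT2 beside EGFL7 did not pass.

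**Figure D3:**
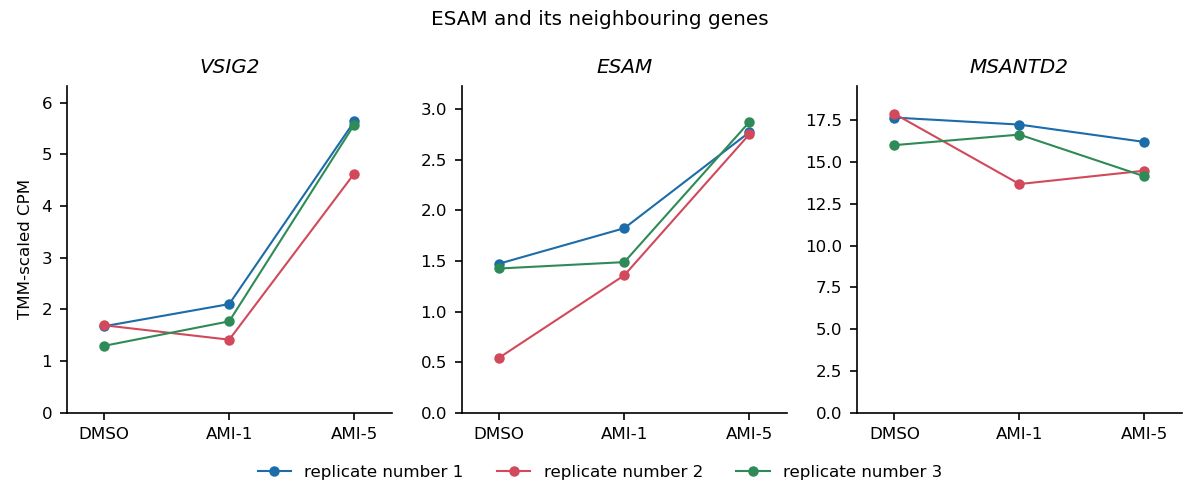
CPM of ESAM and of the genes on either side of it in the 9 libraries (linear axes from 0), with lines joining libraries of the same replicate number. VSIG2 and ESAM are both higher in all 3 AMI-5 libraries than in any DMSO or AMI-1 library (lowest AMI-5 values 4.63 and 2.75 CPM), while the AMI-5 values of MSANTD2 (14.2 to 16.2 CPM) overlap those of the other groups.

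Of the receptors, ENG and TIE1 fell with AMI-5 and TEK did not pass. ENG, the endoglin gene, stood at 600.0, 361.1 and 478.9 CPM in control replicates 1, 2 and 3, at 546.2, 380.9 and 403.7 CPM with AMI-1, and at 434.5, 280.2 and 403.4 CPM with AMI-5. Replicate 2 was the lowest library of each group, and the groups overlapped, yet each AMI-5 library was below the control library of its own number. ENG fell to 0.781 of control (95% interval 0.708 to 0.861, log2 fold change -0.36 ± 0.07 SE, edgeR adjusted p = 0.00362). The call was lost when control replicate 1 or either of AMI-5 replicates 1 and 2 was left out, with a highest adjusted p of 0.0905. An antisense gene, AL162586.1, overlaps ENG, and it fell from 58.9 ± 10.96 to 46.8 ± 6.57 CPM (adjusted p = 0.0129). The strand setting of the counting is not given in the sources used here, so the reads of these 2 genes cannot be told apart.

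TIE1, the orphan receptor that pairs with TIE2, was at 198.9, 119.0 and 161.7 CPM in control replicates 1, 2 and 3, at 206.3, 139.0 and 156.9 CPM with AMI-1, and at 161.8, 97.2 and 148.2 CPM with AMI-5. The AMI-5 library was the lowest within each replicate number, and the groups overlapped. TIE1 fell to 0.850 of control (95% interval 0.771 to 0.938, log2 fold change -0.23 ± 0.07 SE, edgeR adjusted p = 0.0324). This call held in 4 of 9 fits without 1 library, the others being those that dropped replicate 1 of any group, control replicate 3 or AMI-5 replicate 2.

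TEK, the receptor of the angiopoietins, did not pass. It stood at 71.4, 96.6 and 72.1 CPM in control replicates 1, 2 and 3, at 67.6, 105.6 and 78.0 CPM with AMI-1, and at 70.0, 95.6 and 72.3 CPM with AMI-5. The library of replicate 2 was the highest in each group, the reverse of ENG and TIE1. The log2 fold change of TEK with AMI-5 was -0.01, with a 95% interval of -0.14 to 0.12 (edgeR adjusted p = 0.925), which leaves out falls as large as the estimates for ENG and TIE1 in the same fit. With GC correction the estimate for TEK was -0.04 (-0.13 to 0.05), an interval that holds the estimate for TIE1, -0.07. The difference between TIE1 and TEK was not tested. The ratio of TIE1 to TEK in CPM ran from 1.02 to 3.05 over the 9 libraries. It was 2.78, 1.23 and 2.24 in control replicates 1, 2 and 3, and 2.31, 1.02 and 2.05 with AMI-5. The ratio was lower with AMI-5 within each number, but it differed more between numbers than between treatments.

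The ligand and the phosphatase of the same axis did not pass the test. ANGPT2 was counted 9, 12 and 19 times in control replicates 1, 2 and 3, then 10, 15 and 17 times with AMI-1, and 13, 5 and 7 times with AMI-5. In CPM this was 0.6025, 0.726 and 0.820 in control, 0.701, 0.8485 and 0.684 under AMI-1, then 0.611, 0.335 and 0.296 under AMI-5. Replicates 2 and 3 with AMI-5 were the lowest of the 9 libraries, while replicate 1 with AMI-5 lay within the control range. The log2 fold change was -0.81 with a 95% interval of -1.57 to -0.05 (edgeR adjusted p = 0.158), so that ANGPT2 did not pass after adjustment over all genes. ANGPT2 lies within the gene MCPH1, on the opposite strand. MCPH1 was at 19.25 ± 3.15 CPM in control and 20.55 ± 3.65 with AMI-5, far above ANGPT2, and without a known strand their reads cannot be told apart where they overlap.

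PTPRB stood at 18.7, 25.4 and 18.4 CPM in control replicates 1, 2 and 3, at 17.3, 29.2 and 19.6 CPM with AMI-1, and at 19.9, 27.9 and 20.3 CPM with AMI-5. Its 3 AMI-5 libraries were each above the control library of the same number, by little. The log2 fold change was 0.13 with a 95% interval of -0.05 to 0.30 (edgeR adjusted p = 0.343). As with TEK, replicate 2 was the highest library of each group. The antisense gene AC025569.1 overlaps PTPRB at 1.21 ± 0.489 CPM in control.

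ERG, the ETS transcription factor, was the steadiest of the 10 between replicate numbers. It stood at 56.8, 59.7 and 60.6 CPM in control replicates 1, 2 and 3, at 60.0, 57.1 and 62.3 CPM with AMI-1, and at 51.1, 53.2 and 48.5 CPM with AMI-5. All 3 AMI-5 libraries lay below the 6 others. ERG fell to 0.860 of control (95% interval 0.781 to 0.948, log2 fold change -0.22 ± 0.07 SE, edgeR adjusted p = 0.0426). Replicate number accounted for 0.772% of its variation and treatment for 82.1%. The size of the fall is near the limit of these libraries, for the call held in 2 of 9 fits without 1 library and failed whenever AMI-1 replicate 1, a control library or an AMI-5 library was dropped. ESAM and ERG were the 2 of 10 genes whose AMI-5 and control libraries did not overlap, a pattern found for 7.35% of all genes tested.

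Of the secreted products besides ANGPT2, EGFL7 fell and VWF did not pass. EGFL7 stood at 77.9, 30.2 and 61.4 CPM in control replicates 1, 2 and 3, at 74.5, 34.7 and 48.6 CPM with AMI-1, and at 60.6, 20.7 and 53.8 CPM with AMI-5. Replicate 2 was far below replicates 1 and 3 in every group, and the groups overlapped widely. EGFL7 fell to 0.793 of control (95% interval 0.683 to 0.921, log2 fold change -0.33 ± 0.10 SE, edgeR adjusted p = 0.0435). The call held in 3 of 9 fits without 1 library, and was lost when a control library, AMI-1 replicate 1, or 1 of AMI-5 replicates 1 and 2 was dropped. MIR126, which lies inside EGFL7, was not among the genes tested.

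VWF was at 9.51, 5.38 and 6.001 CPM in control replicates 1, 2 and 3, at 8.83, 7.24 and 7.52 CPM with AMI-1, and at 7.09, 5.84 and 8.70 CPM with AMI-5. The 3 pairs did not move one way: with AMI-5, replicate 1 was lower than its control and replicates 2 and 3 higher. The log2 fold change was 0.09 with a 95% interval of -0.22 to 0.40 (edgeR adjusted p = 0.732). VWF has a near-identical pseudogene copy, so its reads may be shared between the copies.

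With AMI-1 against control, no endothelial gene passed the test, with the block or without it. Without the block 0.00% of all genes passed and every edgeR adjusted p of the 10 was 1.0 (0 of the 10 and 187 of 18284 genes at an unadjusted p under 0.05, with DESeq2 calling 0 of the 10 and 3 genes, 0.0165%). With the block 0.410% of all genes passed, and the lowest adjusted p among the 10 was 0.637, that of ESAM, with 0 of the 10 and 1851 genes at an unadjusted p under 0.05. The estimates were close to 0 for most of them. The log2 fold change was -0.03 for CDH5 (95% interval -0.15 to 0.09), -0.10 for ENG (-0.24 to 0.04), 0.08 for TIE1 (-0.06 to 0.22) and 0.02 for ERG (-0.12 to 0.16). ESAM had the highest estimate, 0.40, with an interval of -0.15 to 0.96, and was higher in AMI-1 than in control within all 3 numbers. It was the only 1 of the 10 to move one way in all 3 pairs, where 14.4% of all genes were higher and 15.7% lower in all 3, and no gene of the 10 had groups that did not overlap, against 4.00% of all genes.

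Both compounds share the same control libraries, so their difference was tested directly, as 1 pair of compounds at the matched dose and time. For AMI-5 against AMI-1, none of the 10 passed without the block, where 0.00% of genes did (edgeR adjusted p 1.0 for each, with 3 of the 10 and 478 genes at an unadjusted p under 0.05, and DESeq2 calling 0 of the 10 and 36 genes, 0.198%). With the block 5 passed, against 5.10% of all genes. TIE1, CDH5, ENG and ERG were lower with AMI-5, where 3.48% of all genes were, and ESAM was higher, where 1.62% were. TIE1 differed by a log2 fold change of -0.31 ± 0.07 SE (edgeR adjusted p = 0.0103), its AMI-1 mean of 167.4 ± 34.9 CPM lying above its control mean of 159.8 ± 40.0 CPM. CDH5 differed by -0.24 ± 0.06 (adjusted p = 0.0212), ENG by -0.26 ± 0.07 (0.0330) and ERG by -0.24 ± 0.07 (0.0461). ESAM was 1.80-fold higher with AMI-5 than with AMI-1 (95% interval 1.31 to 2.47, adjusted p = 0.0303).

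The remaining 5 genes did not pass this test, which does not show that the compounds act alike on them. The 95% interval of the log2 difference was -0.20 to 0.06 for TEK, -0.12 to 0.23 for PTPRB and -0.42 to 0.19 for VWF. It was -0.47 to -0.04 for EGFL7 (adjusted p = 0.172), whose pair of replicate 3 went the other way. EGFL7 passed without AMI-1 replicate 3 (log2 difference -0.42) or AMI-5 replicate 3 (also -0.42). For ANGPT2 the interval ran from -1.58 to -0.07 (adjusted p = 0.205), and its 3 AMI-5 libraries lay below its 3 AMI-1 libraries, as those of ERG did. ESAM, ANGPT2 and ERG were the 3 genes whose AMI-5 and AMI-1 libraries did not overlap, a pattern found for 7.49% of all genes. All 3 pairs were lower with AMI-5 for CDH5, ENG, TIE1, ANGPT2 and ERG, as for 18.5% of all genes, and higher for ESAM, as for 16.7%. In fits without 1 library, TIE1 passed in 5 of 9, CDH5, ENG and ESAM in 4 of 9 and ERG in 2 of 9. Leaving out AMI-5 replicate 1, AMI-5 replicate 2 or AMI-1 replicate 1 lost all 5 calls. Without AMI-1 replicate 2 CDH5, ESAM, ENG and TIE1 were lost, without control replicate 1 CDH5, ENG and ERG, without AMI-1 replicate 3 ESAM, and ERG on dropping control replicate 2, control replicate 3 or AMI-5 replicate 3.

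**Figure D4:**
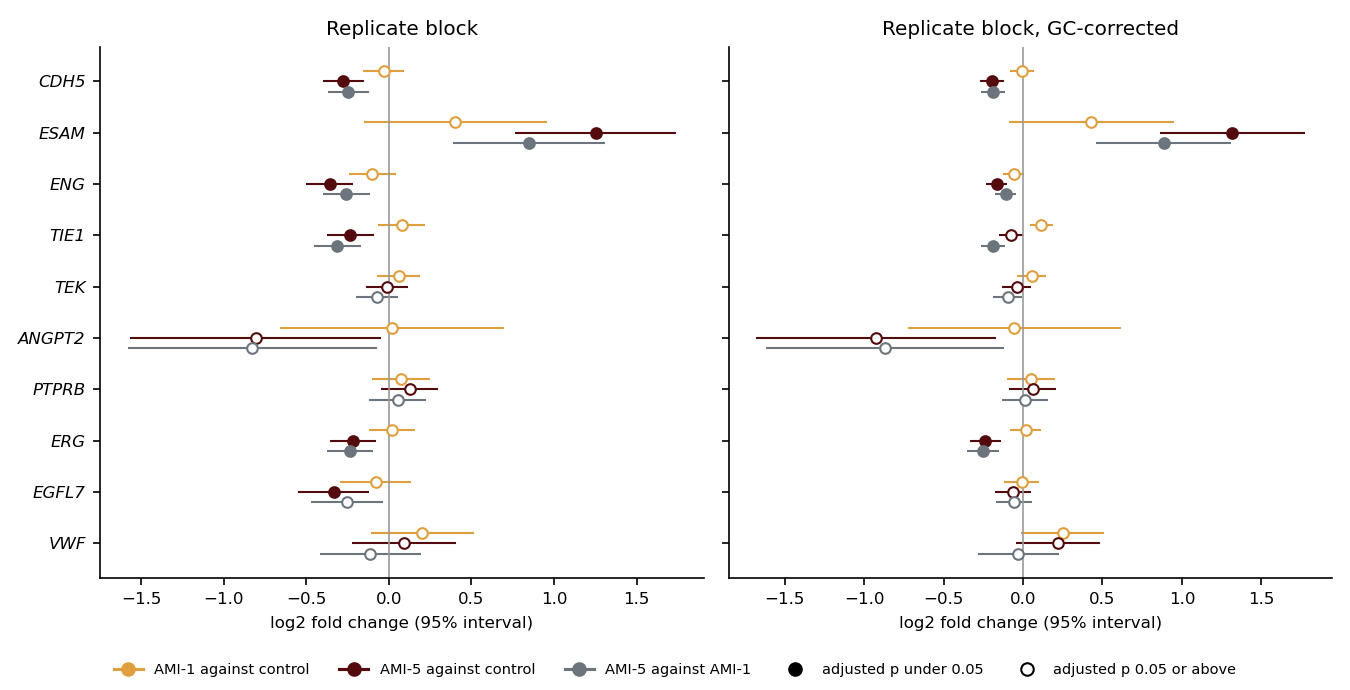
Log2 fold changes of the 10 endothelial genes in 3 comparisons, with 95% intervals, from the fit with the replicate block (left) and the same fit corrected for transcript GC content (right). Filled points have an adjusted p under 0.05. ESAM lies to the right (1.25 with AMI-5 on the left panel), and ENG, TIE1 and EGFL7 lie nearer 0 on the right panel than on the left for AMI-5 against control (for ENG -0.16 in place of -0.36).

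The difference between replicate numbers followed the base composition of the transcripts. Over the 10 genes, GC content of the longest transcript ran from 38.7% (ANGPT2) to 68.1% (EGFL7). Replicate 2 was lower than the mean of replicates 1 and 3 by a log2 difference of -1.15 for EGFL7, -0.55 for TIE1 and -0.48 for ENG. For TEK (45.1% GC) it was higher, by 0.46, and for PTPRB (42.4% GC) by 0.53. The correlation of GC content with this difference was -0.873 over the 10 genes (Spearman -0.830), and -0.790 over the 14761 genes whose average log2 CPM exceeded 1. These points share the same 9 libraries, and genes are not independent replicates. CDH5 (54.5% GC, -0.28) and ERG (46.4% GC, 0.01) lay closer to 0.

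The AMI-5 fold changes were also related to GC content, with a correlation of -0.504 over the same genes. In the tenth of genes with the most GC, which holds ENG and EGFL7, the median log2 fold change with AMI-5 was -0.21. In the tenth that holds TIE1 it was -0.14, in that of CDH5 -0.11, and in that of ERG 0.001. ERG at -0.22 and CDH5 at -0.28 thus stood farther from the genes of like composition than TIE1 at -0.23, and ENG at -0.36 and EGFL7 at -0.33 also lay below the median of theirs. ANGPT2, whose change did not pass, was the farthest below, at -0.81 against a median of 0.090. It had only 5 to 19 reads per library. These medians cover only genes averaging above 1 on the log2 CPM scale.

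When each library was corrected for its GC trend in the blocked fit, 4 of the 10 genes passed for AMI-5 against control, where 13.6% of all genes did. ESAM rose with a log2 fold change of 1.32 (edgeR adjusted p = 1.142e-04 in this fit). CDH5 fell by 0.20 on the log2 scale (adjusted p = 3.569e-04), ENG by 0.16 (7.425e-04) and ERG by 0.24 (0.00115). TIE1 (-0.07, adjusted p = 0.187) and EGFL7 (-0.06, adjusted p = 0.500) no longer passed. The fall of ENG was thus 0.16 in place of 0.36 on the log2 scale, and that of ERG 0.24 in place of 0.22. For AMI-5 against AMI-1 the same 5 genes passed as before, where 11.8% of all genes did, with TIE1 at -0.19 and ENG at -0.11. For AMI-1 none of the 10 passed, where 3.44% of all genes did; the lowest adjusted p was that of TIE1, 0.0760, for an estimate of 0.12.

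**Figure D5:**
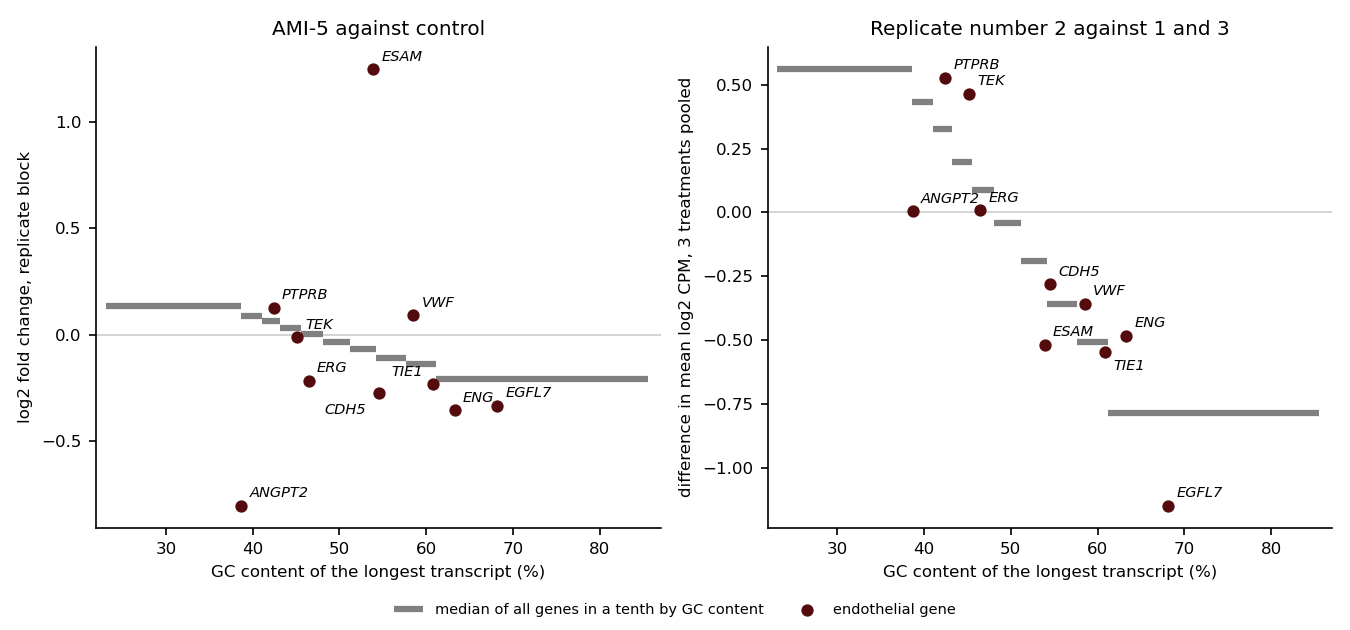
GC content of the longest transcript (%) of each endothelial gene against its log2 fold change with AMI-5 (left, replicate block) and against the log2 difference of replicate number 2 from numbers 1 and 3 (right). Grey bars are medians of the genes averaging above 1 on the log2 CPM scale, in 10 classes of equal size by GC content. On the right most genes run down with the bars, from PTPRB at 0.53 to EGFL7 at -1.15, with ANGPT2 below its bar, and on the left ANGPT2 lies farthest below its bar, with ERG, CDH5, ENG, EGFL7 and TIE1 also below theirs and ESAM far above.

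In the 6 pathway groups around these 10, between 1 and 4 genes of each passed with AMI-5 in the blocked fit. Of 30 listed junction partners, 23 were measured, and with AMI-5 against control 3 fell and 1 rose (median log2 fold change -0.06). RASIP1, an effector of the small GTPase RAP1 at endothelial junctions, fell from 19.2 ± 7.87 to 13.5 ± 5.30 CPM (log2 fold change -0.49 ± 0.10 SE, edgeR adjusted p = 0.00517). PVRL2 (nectin-2) fell by 0.32 on the log2 scale, and CCM2, a scaffold gene mutated in cerebral cavernous malformation, by 0.27. CGNL1, which encodes the junction protein paracingulin, rose from 5.20 ± 0.742 to 7.43 ± 0.355 CPM (log2 fold change 0.53 ± 0.12 SE, adjusted p = 0.0121). Between the compounds 2 partners were higher and 3 lower with AMI-5, CDH2 (N-cadherin) being higher by 0.19, a gene named after its values were seen. With AMI-1 none of the 23 passed in this fit. These counts are to be read against the 10.9% and 5.10% of all genes that passed in the same 2 comparisons.

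Among 6 measured genes of Tie and angiopoietin signalling, AKT1, a kinase downstream of TIE2, fell with AMI-5 (log2 fold change -0.25, edgeR adjusted p = 0.0171), and PIK3R1, a regulatory subunit of PI3-kinase, rose (0.23, 0.0472). FOXO1, a transcription factor that AKT restrains, was at 25.5 ± 3.40 CPM in control, 23.99 ± 4.01 with AMI-1 and 29.3 ± 3.35 with AMI-5. It was higher with AMI-5 than with AMI-1 (log2 fold change 0.29, adjusted p = 0.0338), and did not pass against control (0.21, 0.0885).

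Of 22 endothelial transcription factors, all measured, 4 fell with AMI-5 and none rose (median log2 fold change -0.11), where 7.51% of all genes fell and 3.44% rose. FOXC2, a forkhead factor of lymphatic valves, fell by 0.55 on the log2 scale (edgeR adjusted p = 0.00163), NR2F2, a factor of venous identity, by 0.22 (0.0203), GATA2 by 0.24 (0.0411) and ETS2 by 0.21 (0.0384). ETS2, the neighbour of ERG on its chromosome, also fell with AMI-1, from 51.6 ± 3.65 to 41.6 ± 2.90 CPM (log2 fold change -0.31 ± 0.06 SE, adjusted p = 0.0348). It was the 1 gene of that list to pass with AMI-1 in the blocked fit, and ERG itself was at 59.8 ± 2.61 CPM there against 59.0 ± 1.97 in control.

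In the group of 14 endoglin-related receptors and SMADs, 1 gene fell with AMI-5 and none rose (median log2 fold change 0.03). It was TGFBR2, the type II TGF-beta receptor, from 417.9 ± 24.03 to 359.7 ± 21.0 CPM (log2 fold change -0.22, edgeR adjusted p = 0.0128). ACVRL1 (ALK1), the type I receptor that signals with endoglin, was lower with AMI-5 than with AMI-1 (log2 fold change -0.31, adjusted p = 0.0284) and did not pass against control (-0.24, 0.0544). Of 18 measured genes of Weibel-Palade bodies and their cargo, 2 fell with AMI-5, ECE1, the enzyme that processes endothelin, by 0.23 on the log2 scale (0.0129), and PLAT, tissue plasminogen activator, by 0.21 (0.0147). Of 12 measured Notch genes, on which EGFL7 is known to act, 2 fell: LFNG, which glycosylates Notch, by 0.47 (0.0121) and NOTCH2 by 0.22 (0.0130). Median log2 fold changes with AMI-5 were -0.09 for the Weibel-Palade group and -0.16 for the Notch group. In the same fit 7.51% of all genes fell. None of these 3 groups had a gene that passed with AMI-1.

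The calls in these groups rested on few libraries. Every gene of them named by rule for AMI-5 against control lost its call without AMI-5 replicate 1, and every one but FOXC2 lost it without control replicate 3. ETS2 with AMI-1 passed in 3 of 9 fits without 1 library, the losses coming with replicate 1 of either compound, AMI-5 replicate 2 and each control library.

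GC correction also moved the calls in the groups. With AMI-5 against control, AKT1 (-0.07 in place of -0.25, edgeR adjusted p = 0.200), PIK3R1 (0.13 in place of 0.23, 0.107) and GATA2 (-0.098 in place of -0.24, 0.160) no longer passed. FOXO1 did (0.19, 0.0360). Among those that still passed, RASIP1 was at -0.24 in place of -0.49, PVRL2 at -0.19 in place of -0.32, FOXC2 at -0.35 in place of -0.55, ECE1 at -0.11 in place of -0.23 and LFNG at -0.28 in place of -0.47. More junction partners passed, 9 of 23, 8 of them lower, where 13.6% of all genes passed in either direction. Of the 22 transcription factors 6 passed, all lower, the ETS-family genes FLI1 (-0.19, adjusted p = 0.00359), ELK3 (-0.17, 0.00223) and ETS1 (-0.12, 0.0166) now among them. SMAD1 (-0.21, 0.0485) and the Notch ligand gene JAG1 (-0.13, 0.0362) passed as well. Median log2 fold changes with AMI-5 were then -0.07 for junction partners, -0.06 for transcription factors and -0.03 for the endoglin-related group. They were -0.04 for the Weibel-Palade group and -0.06 for the Notch group. With AMI-1, 4 junction partners passed where 3.44% of all genes did: F11R (JAM-A, 0.20) and JUP (plakoglobin, 0.21) were higher, CDH2 (-0.17) and PKP4 (-0.16) lower. MEF2A (0.25) and the shear-responsive factor KLF2 (0.21) were higher with AMI-1 too. Genes that passed only with this correction, FOXO1 and JAG1 apart, were named after their values were seen.

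The endothelial label was checked against marker genes. Of 24 endothelial markers other than the 10 genes, 21 were measured and none had a control mean under 1 CPM. MCAM was the highest at 316.4 CPM in control, ROBO4 stood at 71.5, CD34 at 37.1 and STAB1 at 28.2 CPM. PECAM1, CLDN5 and MMRN1 were not among the genes tested. The markers' summed level was 769.6 to 948.9 CPM in control, 839.7 to 948.6 with AMI-1 and 702.8 to 818.8 with AMI-5. With AMI-5, 5 of the 21 fell (MCAM, STAB1, ROBO4, ECSCR and MMRN2) and 1, CALCRL, rose, the last 3 being named after their values were seen, where 7.51% of all genes fell and 3.44% rose. The estimate was negative for 14 of the 21 and positive for 7, with a median log2 fold change of -0.13. MCAM fell by 0.31 on the log2 scale (edgeR adjusted p = 0.00351), STAB1 by 0.39 (0.00832) and ROBO4 by 0.29 (0.0173). Each of these calls held in 5 of 9 fits without 1 library. They were lost without control replicate 1, control replicate 3, AMI-5 replicate 1 or AMI-5 replicate 2. With AMI-1 none of the 21 passed. With GC correction 5 of the 21 fell with AMI-5, CD34 (-0.17) taking the place of MMRN2, CALCRL no longer passed, and STAB1 was at -0.20 and ROBO4 at -0.15. The median of the 21 was -0.03 in that fit, against -0.005 over all genes, with 13 estimates negative and 8 positive. With AMI-1, CD93 alone then passed (0.25), a gene named after its values were seen. The haematopoietic progenitor and endothelial marker CD34 was lower with AMI-5 than with AMI-1 (33.1 ± 6.45 against 41.5 ± 7.46 CPM, log2 fold change -0.33, adjusted p = 0.00996).

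Markers of other cell types were also measured in this single line. Of 10 smooth muscle and pericyte markers 8 were measured, TAGLN highest at 405.0 CPM in control, and their sum was 572.7 to 958.6 CPM in control, 599.1 to 873.6 with AMI-1 and 519.3 to 842.4 with AMI-5. CSPG4 (NG2) alone of the 8 passed with AMI-5, falling by 0.32 on the log2 scale (edgeR adjusted p = 0.0467). The call for CSPG4 held in 2 of 9 fits without 1 library. Counts with AMI-5 in these lists are to be read against the 10.9% of all genes that passed in the blocked fit. With GC correction CSPG4 did not pass (-0.12, 0.139) and TAGLN rose (0.15, 0.00586). Of 8 fibroblast markers 6 were measured, with COL1A1 at 3363 CPM in control and 2678 with AMI-5 (log2 fold change -0.32, edgeR adjusted p = 0.0125, and -0.15 with GC correction). The call for COL1A1 held in 5 of 9 fits without 1 library. The sum of the 6 fibroblast markers was 3014 to 4476 CPM in control, 3142 to 4186 with AMI-1 and 2464 to 3196 with AMI-5. COL1A1 made up most of that sum. With AMI-5 against control 3 of the 6 estimates were positive and 3 negative (median log2 fold change -0.06). With GC correction 2 were positive and 4 negative (median -0.07). DCN and FAP were not among the genes tested. Of 8 epithelial markers 4 were tested and none passed, led by KRT18 at 275.2 CPM, while EPCAM and CDH1 were not among them. The epithelial sum was 239.4 to 413.2 CPM in control, 265.8 to 394.8 with AMI-1 and 201.7 to 374.4 with AMI-5. CD14 was the 1 of 6 blood markers tested, at 1.95 CPM in control, 2.14 with AMI-1 and 2.28 with AMI-5, and did not pass. The lymphatic marker PDPN rose with AMI-1 from 52.5 ± 0.894 to 66.3 ± 4.41 CPM (log2 fold change 0.34, adjusted p = 0.0178) and was 50.9 ± 1.076 CPM with AMI-5, while PROX1 and LYVE1 were not among the genes tested. The call for PDPN with AMI-1 was lost on dropping replicate 1 of any group or control replicate 3. FLT4, the other lymphatic marker tested, went the opposite way, with a mean of 30.9 CPM in control and 25.5 with AMI-1. FLT4 did not pass with AMI-1 in the blocked fit, and was lower with GC correction (log2 fold change -0.22, edgeR adjusted p = 0.0361). The sum of PDPN and FLT4, the 2 of 6 lymphatic markers tested, was 72.2 to 93.8 CPM in control, 78.5 to 101.9 with AMI-1 and 66.9 to 83.7 with AMI-5. The part of other cell states in the endothelial results was not tested.

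The 10 genes did not vary as 1 unit. After subtracting the mean of each replicate number, the log2 CPM of CDH5 followed that of ENG (Pearson r = 0.963 over 9 libraries), TIE1 (0.932), EGFL7 (0.913) and, less closely, ANGPT2 (0.804) and ERG (0.703). ENG and EGFL7 correlated at 0.935. ESAM ran opposite to CDH5 (-0.744), to ERG (-0.747) and to ENG (-0.716). TEK (0.385 with CDH5), PTPRB (-0.405) and VWF (0.175) did not follow CDH5. The same libraries and treatments stand behind all of these values, which are descriptions of 9 points, not all free after the subtraction. The profiles were not corrected for GC content, which was high in ENG (63.3%), TIE1 (60.8%) and EGFL7 (68.1%). Its part in these correlations was not tested.

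The ratio of CDH5 to ENG in CPM was 0.333, 0.416 and 0.383 in control replicates 1, 2 and 3, and 0.377, 0.442 and 0.379 with AMI-5. It lay between those bounds with AMI-1 as well, so that the ratio of these 2 surface genes ran from 0.333 to 0.442 over the 9 libraries. Among 12762 genes with a mean of at least 5 CPM, the 3 whose profile was most like that of CDH5 by the same measure were MCAM (r = 0.998), PLCB3 (0.995) and MIER2 (0.994). For ENG they were LMNB2, INTS1 and TUBB4B (each 0.997), and for TIE1 RP11-982M15.2 (0.995), SHISA5 (0.994) and COL6A3 (0.994). For ERG they were SPRED2 (0.985), DOCK1 (0.979) and ULBP2 (0.975). RGS10 (0.980), ECSCR (0.968) and TRNAU1AP (0.966) were nearest to ANGPT2, and MATN3 (0.976), HS6ST1 (0.952) and BTD (0.948) to VWF. ANGPT2 had only 5 to 19 reads per library. All of these values were picked as the highest among 12762 genes, and how high such picked values run for other genes was not tested.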

How the data were processed

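Poly-A RNA of HMEC-1 cells was sequenced in 9 libraries, 3 each for DMSO, AMI-1 and AMI-5. The authors deposited whole-number read counts per gene in 1 table for each compound, the control libraries appearing with identical values in both. Per the submitters' processing notes BWA and bedtools were used with build hg19, and the sources used here give neither their versions nor the annotation or strand setting. There are 18385 genes in the file for AMI-1, 18598 in that for AMI-5 and 18293 in both, and the smallest mean count in each was 10.

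Counts of the shared genes were scaled by the trimmed mean of M-values, filtered for low counts by group (18284 genes left) and compared in edgeR 4.0.16 (R 4.3.3) by its quasi-likelihood F test, with Benjamini-Hochberg adjustment and a threshold of 0.05. All 9 libraries entered each fit. The labels give the groups the same replicate numbers without saying what a number marks, and per the file headers the column names of libraries with the same number begin with a shared code. Same-numbered libraries deviated together in all 9 pairs (correlations of 0.431 to 0.871), so the numbers were taken to pair the libraries, and the biological coefficient of variation was 23.7% without the block and 5.64% with it. GC correction subtracted a lowess curve of span 0.3, drawn over genes averaging above 1 on the log2 CPM scale, from each library. Levels and profiles used CPM and log2 CPM with a prior count of 2.

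The 10 genes and the lists around them (junction partners, Tie and angiopoietin signalling, endothelial transcription factors, endoglin receptors, Weibel-Palade bodies, EGFL7 and Notch, and cell type markers) were chosen with earlier results of these data known. The result of 1 further list is not reported here. From each list up to 4 genes of lowest adjusted p in the blocked fit were named, and for 6 of the 10 genes the 3 genes of most similar profile. DESeq2 1.42.0, its size factors, no low-count filter, only the groups compared, the block with and without GC correction, and fits without each library were tried as alternatives.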

Additional observations from a re-analysis of the deposited data

How the results depend on the processing

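Every call among the 10 endothelial genes rested on the replicate block: without it none passed in any of the 3 comparisons under any alternative run. With AMI-5 against control, 6 of the 10 passed with the replicate block, 4 with the block and GC correction, 3 with the block in DESeq2, 6 with the block and DESeq2 size factors and 6 with the block over only the groups compared. With AMI-5 against AMI-1 these counts were 5, 5, 3, 5 and 4. Over all genes, AMI-1 against control gave 75 calls with the replicate block, 629 with GC correction added, 79 in DESeq2, 71 with DESeq2 size factors and 69 over only the groups compared, and 3 in DESeq2 without the block. For AMI-5 against control the counts were 2002, 2494, 1359, 1957 and 4372, and 19 without the block, and for AMI-5 against AMI-1 they were 932, 2162, 695, 911 and 820, and 36. Over the fits without 1 library, with and without the block, 0 to 6 of the 10 passed for AMI-5 against control, 0 to 5 for AMI-5 against AMI-1 and 0 for AMI-1, and all genes gave 0 to 4283, 0 to 3465 and 0 to 354 calls. With the block alone the lowest of these counts were 155, 192 and 14 over all genes.

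Of 30 log2 fold changes of the 10 genes, 16 changed sign under some setting, all of them in fits without 1 library, besides ANGPT2 with AMI-1 under the block with GC correction (-0.055). The ranges that follow pool the fits without 1 library with the block and without it. For AMI-1 against control the fits without 1 library ran from -0.14 to 0.058 for CDH5, -0.29 to 0.081 for ENG, -0.11 to 0.26 for TIE1, -0.14 to 0.22 for TEK, -0.17 to 0.30 for ANGPT2, -0.18 to 0.25 for PTPRB, -0.020 to 0.070 for ERG and -0.43 to 0.20 for EGFL7. In the blocked fits alone TEK (0.024 to 0.12) and PTPRB (0.0050 to 0.14) kept their sign. For AMI-5 against control the pooled fits ran from -0.17 to 0.14 for TEK, -0.050 to 0.29 for PTPRB, -0.62 to 0.019 for EGFL7, -0.16 to 0.35 for VWF and -0.60 to 0.020 for CSPG4. In the blocked fits alone PTPRB (0.089 to 0.19), EGFL7 (-0.50 to -0.22) and CSPG4 (-0.48 to -0.22) kept their sign. For AMI-5 against AMI-1 the pooled fits ran from -0.23 to 0.12 for TEK, -0.13 to 0.30 for PTPRB, -0.49 to 0.12 for EGFL7, -0.37 to 0.075 for VWF and -0.74 to 0.18 for FOXC2. In the blocked fits alone TEK (-0.12 to -0.036), EGFL7 (-0.42 to -0.11) and FOXC2 (-0.51 to -0.25) kept their sign. CDH5, ESAM, ENG, TIE1 and ERG kept their direction with AMI-5 in both comparisons under all of these alternatives. So did ANGPT2, which passed in neither comparison. The cause of these changes was not tested. Depth limits ESAM (9 to 68 reads per library) and ANGPT2 (5 to 19).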
